A study of Mus musculus with 19 samples.

Results

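The transcripts described here are 10 T cell cytokine genes: Ifng, Tnf, Il2, Il10, Il21, Csf2, Lta, Ltb, Tgfb1 and Tmevpg1, the noncoding neighbour of Ifng. They are a list of names, set by no threshold on these values but with earlier results of the same data known, and each of the 10 names had a row among the 53656 gene rows of the count tables. The 19 RNA-seq libraries were made from CD8 T cells of C57BL/6 mice. Each of 5 ex vivo groups had 3 libraries and each of 2 cultures had 2. Late SV40-I cells were CD8 T cells with the transgenic SV40-I T cell receptor, sorted by Thy1.1 from malignant liver lesions at days 20 to 21. OT-I cells carried the transgenic OT-I receptor and were sorted by Ly5.1 from lesions at the same days. At days 8 to 9, SV40-I cells from lesions were split by sorting into marker-high cells, high for PD1, LAG3 and CD39, and marker-low cells, low for all 3. TOX-GFP and GFP cells were SV40-I cells activated in vitro through CD3 and CD28, transduced with a retrovirus for TOX-GFP or for GFP, and grown in IL-2. Naive cells were CD44-low SV40-I cells.

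The SV40-I receptor is directed at the large T antigen of SV40, and the OT-I receptor at ovalbumin. Retroviral delivery does not fix the copy number or site of the construct. The source field of every sample reads splenocytes although the titles of 12 ex vivo samples name liver lesions, and the column headings of the marker-high and marker-low tables carry the letters WT and KO although the labels give no genotype. Whether the replicates of a group came from different animals or cultures is not in the labels. The p-values therefore rest on a spread among libraries that may be technical. In bulk RNA, fewer cells that transcribe a gene and less RNA per cell cannot be told apart.

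Cytotoxic T cells release cytokines after their receptor binds antigen. Calcium signalling through NFAT, together with AP-1 and NF-kB, switches on Ifng, Tnf, Il2 and Csf2, and their mRNAs carry AU-rich elements in the 3′ untranslated region that bind decay factors of the Zfp36 family. During prolonged stimulation CD8 T cells are known to lose IL-2 and TNF production and to gain inhibitory receptors, a state called exhaustion or dysfunction, in which TOX is highly expressed. IL-10 and TGF-beta dampen immune responses, while the lymphotoxins encoded by Lta and Ltb shape lymphoid tissue.

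Promoters are shown for 3 genes because Il2 and Tnf carried the clearest difference between marker-high and marker-low cells and Ifng was the most abundant cytokine transcript per length in these groups. Each runs from 250 bases before to 50 bases after the RefSeq start site, 5′ to 3′ on the strand of the gene (RefSeq, GRCm38.p6), and capitals mark GGAAA, the core of an NFAT site, on either strand (TTTCC on the other). Il2 lies at chr3:37125905-37126204, minus strand, Tnf at chr17:35201958-35202257, minus strand, and Ifng at chr10:118440796-118441095, plus strand.
Il2: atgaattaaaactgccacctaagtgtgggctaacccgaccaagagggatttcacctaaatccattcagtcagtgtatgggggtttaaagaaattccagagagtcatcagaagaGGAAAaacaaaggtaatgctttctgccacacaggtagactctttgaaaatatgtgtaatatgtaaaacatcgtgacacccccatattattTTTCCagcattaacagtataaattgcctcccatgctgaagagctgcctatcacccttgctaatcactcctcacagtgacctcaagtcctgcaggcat
Tnf: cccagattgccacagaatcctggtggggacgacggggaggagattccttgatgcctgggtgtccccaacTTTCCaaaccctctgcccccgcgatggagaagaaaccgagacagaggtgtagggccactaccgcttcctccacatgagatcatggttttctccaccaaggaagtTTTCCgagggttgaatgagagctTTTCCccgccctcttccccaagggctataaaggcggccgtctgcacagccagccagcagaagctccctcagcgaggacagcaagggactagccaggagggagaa
Ifng: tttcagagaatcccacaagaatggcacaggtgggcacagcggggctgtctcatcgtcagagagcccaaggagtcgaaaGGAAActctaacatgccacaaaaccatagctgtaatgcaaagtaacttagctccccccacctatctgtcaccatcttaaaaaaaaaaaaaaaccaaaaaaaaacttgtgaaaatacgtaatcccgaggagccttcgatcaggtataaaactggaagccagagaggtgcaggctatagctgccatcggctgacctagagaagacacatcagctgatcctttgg

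Of the 10 names, 8 matched a RefSeq promoter, all but Il10 and Tmevpg1. GGAAA occurred 3 times in the Tnf promoter, 2 times in Il2 and 1 time in Ifng, 3 times each in Il21, Csf2 and Lta, 1 time in Ltb and 0 times in Tgfb1. Over 32544 mouse promoters of the same length, 61.5% held at least 1 match, 26.8% at least 2 and 9.44% at least 3, so a match by itself is common. A TATAAA box lay at -31 in Il2, -29 in Tnf and -30 in Ifng, counted from the start site, against 13.6% of promoters with this motif anywhere. The letters TGANTCA of AP-1 were in none of the 8 windows, against 7.79% of all promoters.

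AU-rich stretches of the 3′ untranslated region are shown for the 4 cytokine mRNAs with the highest density of ATTTA, in capitals, as the 30-base stretch of each gene richest in it (GRCm38 transcripts, strand of the gene, chromosomes 11, 3, 17 and 10 in this order). ATTTA can overlap itself by 1 letter.
Csf2: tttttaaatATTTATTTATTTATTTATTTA
Il2: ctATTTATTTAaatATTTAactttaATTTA
Tnf: attATTTAttATTTATTTAttATTTATTTA
Ifng: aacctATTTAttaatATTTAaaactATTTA

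Csf2 held 28.1 ATTTA per kilobase of its 3′ untranslated region, a density that 0.0395% of 20241 mouse genes reached. Il2 held 12.0, Tnf 10.4, Ifng 9.46 and Il10 8.46 per kilobase, against a median of 1.26 over these genes. Lta held 5.22 and Il21 3.49 per kilobase. Ltb and Tgfb1 held 0, as did 31.7% of genes.

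Levels are given as CPM, the read counts of a gene scaled to the normalised size of its library. Library totals ran between 37006508 and 54195918 counts, so that 3 counts, taken as the limit of detection, correspond to 0.0488 to 0.0821 CPM. Tox averaged 890 ± 163 CPM in late SV40-I cells and 25.5 ± 6.2 CPM in OT-I cells, 580 ± 206 CPM in marker-high and 97.6 ± 43.4 CPM in marker-low cells (SD, n = 3 each). It averaged 117 ± 23.2 CPM in TOX-GFP and 14.5 ± 4.58 CPM in GFP cultures (SD, n = 2 each), and 109 ± 19.2 CPM in naive cells (SD, n = 3). The 10 T cell identity genes, Cd3e and Cd8a among them, summed to between 6330 and 35100 CPM in every library. Other cells were also represented. The 10 macrophage markers summed to 59.3 to 1090 CPM in late SV40-I, 337 to 687 CPM in OT-I, 4170 to 5960 CPM in marker-high, 773 to 9160 CPM in marker-low and 105 to 278 CPM in naive libraries, against 3.26 to 7.07 CPM in the cultures, where Clec4f, Vsig4 and Marco were at 0. The 10 hepatocyte markers passed 1000 CPM in late SV40-I library 2 (1330 CPM) and OT-I library 3 (1530 CPM), here called hepatocyte-rich. OT-I library 2, at 809 CPM against 15.1 CPM in OT-I library 1, stayed in the fits without them. Marker-low library 2 held the 9160 CPM of macrophage markers and 2400 CPM of the 6 neutrophil markers. The share of counts on mitochondrial genes was 0.0509% to 0.504%.

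By group mean per kilobase of exon, Ifng was the highest of the 10 transcripts in marker-low cells at 318 CPM per kb. In marker-high cells its mean was 69.5 CPM per kb, close to the 68.5 of Ltb. Ifng was above Ltb in marker-high libraries 1 and 2, but library 3 had 13.9 CPM per kb for Ifng and 60.3 for Ltb. Ltb, the membrane-anchoring partner of lymphotoxin alpha, was the highest elsewhere, at 152 CPM per kb in late SV40-I cells, 95.7 in OT-I cells, 516 in TOX-GFP cultures, 874 in GFP cultures and 265 in naive cells. Ifng made up 38.5% to 48.9% of the summed CPM of the 10 genes in marker-low libraries, 11.8% to 39.9% in marker-high, 5.2% to 15.2% in late SV40-I and 15.9% to 20.7% in OT-I libraries. It was 0.144% to 0.251% of that sum in the cultures and at most 0.0209% in naive libraries. By group mean per length, Ifng thus led in lesion cells of days 8 to 9, narrowly in marker-high cells, and Ltb in all other groups.

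**Figure D1:**
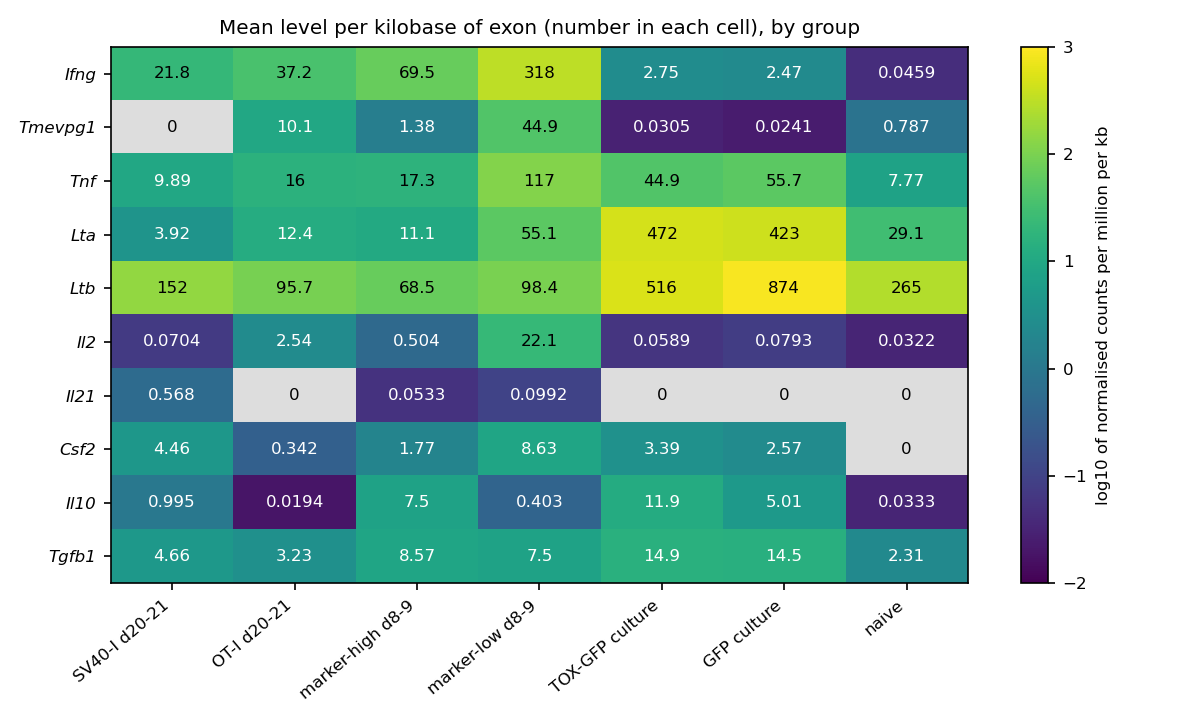
Mean CPM per kilobase of exon for each gene (rows) in each group (columns), with the value printed in the cell, the colour on a log10 scale and grey for 0. Ifng stands at 318 in marker-low cells, while Lta and Ltb stand at 423 to 874 in the cultures.

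Across groups, Ifng spanned the widest range of the genes above 0 everywhere. It averaged 28.2 ± 4.30 CPM in late SV40-I, 48.2 ± 16.5 CPM in OT-I, 90.1 ± 63.2 CPM in marker-high and 412 ± 125 CPM in marker-low cells (SD, n = 3 each), 3.56 ± 0.753 CPM in TOX-GFP and 3.20 ± 0.494 CPM in GFP cultures (SD, n = 2 each), and 0.0595 ± 0.0163 CPM in naive cells (SD, n = 3). Marker-low libraries stood above all others, marker-high overlapped OT-I and OT-I overlapped late SV40-I. Tnf had the same highest group, at 192 ± 15.4 CPM in marker-low cells (SD, n = 3), but its second place went to the cultures and it was 12.7 ± 5.21 CPM even in naive cells (SD, n = 3), whose range overlapped that of late SV40-I cells. Il2 ran from 25.3 ± 7.04 CPM in marker-low cells (SD, n = 3) to values around the limit of detection in late SV40-I cells, both cultures and naive cells. Il21 had more than 3 counts in 5 of 19 libraries, and Csf2 in all but the 3 naive libraries.

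**Figure D2:**
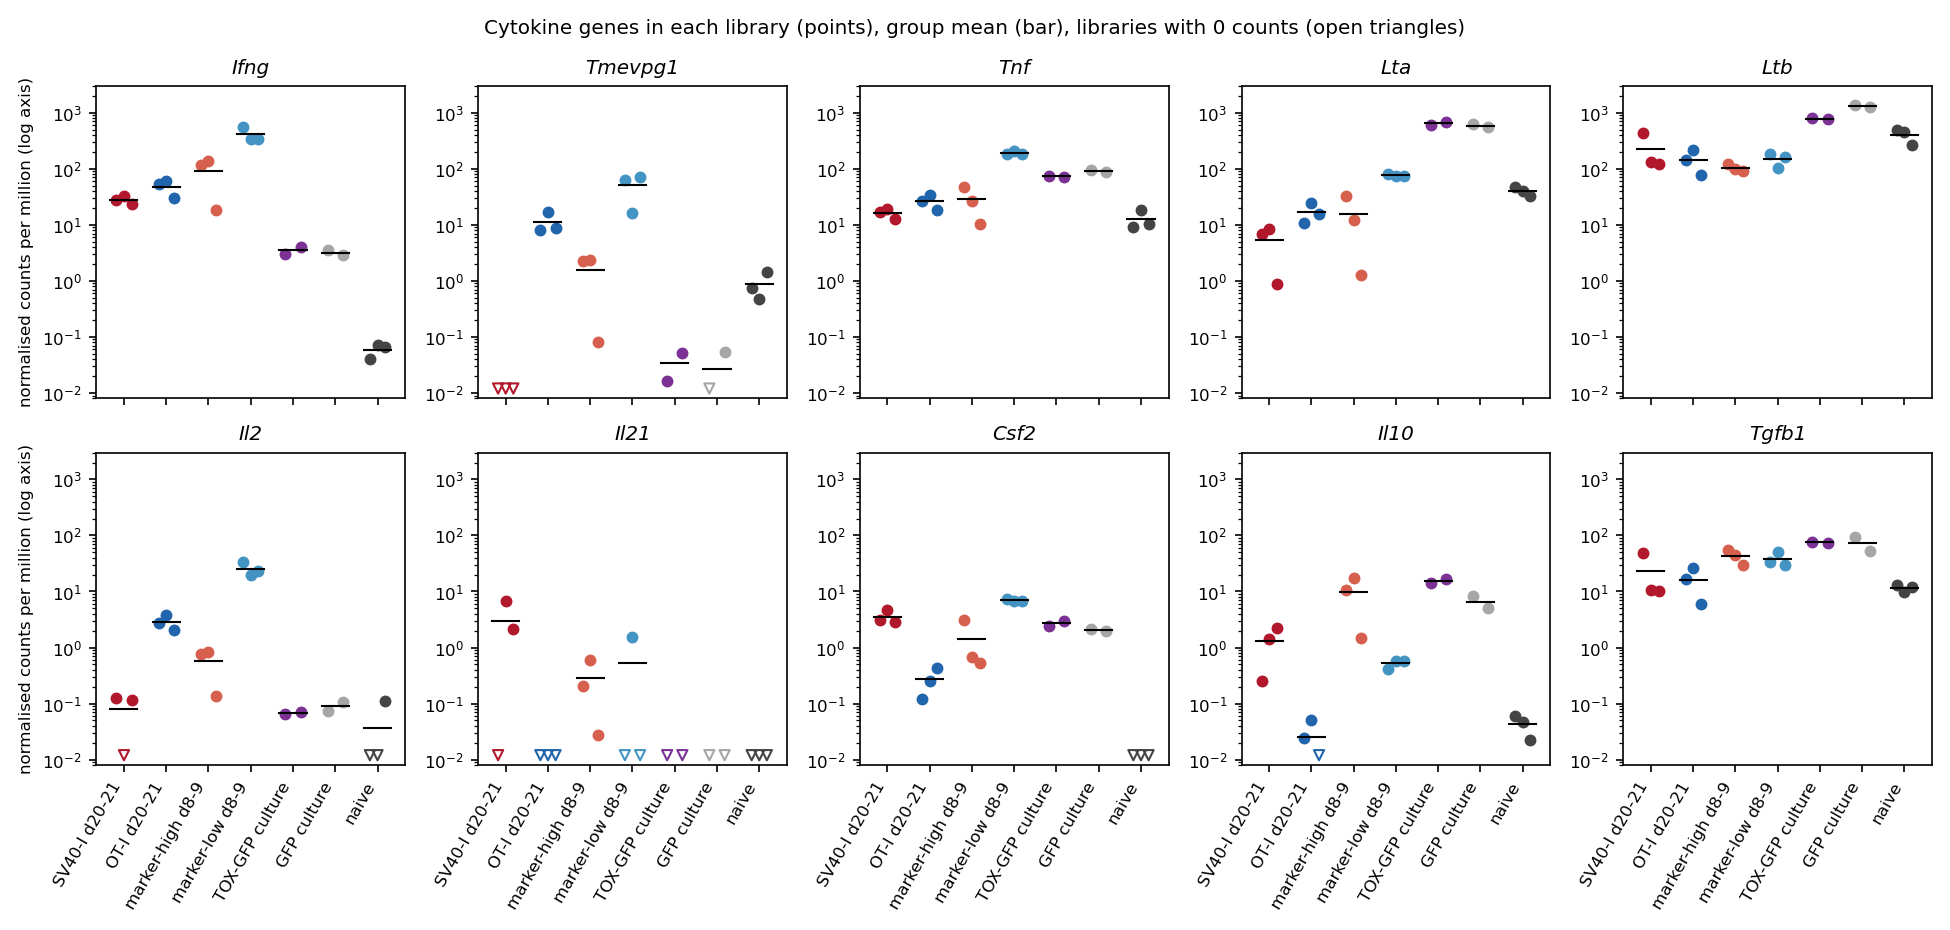
CPM (log axis) of the 10 genes in each of 19 libraries. Points are libraries, bars are group means and open triangles at the bottom are libraries with 0 counts. Tmevpg1 shows 3 open triangles in late SV40-I cells, where Ifng lies at 23.9 to 32.5 CPM.

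In late SV40-I cells compared with OT-I cells, Il10 and Csf2 rose and Il2 and Tmevpg1 fell. Both were sorted from malignant liver lesions at the same days, but whether they shared animals is not in the labels. The calls thus went in both directions, but without the hepatocyte-rich libraries only that of Tmevpg1 was kept. Ifng, Tnf, Lta, Ltb and Tgfb1 were not called, which does not show that they were unchanged. The means of Ifng, Tnf and Lta were lower in late SV40-I cells and those of Ltb and Tgfb1 higher. A gene was called when its adjusted p was under 0.05 in edgeR's quasi-likelihood test. This made 2 genes higher and 2 lower of 10, against 9.02% of 16404 genes called in this comparison, 4.91% higher and 4.11% lower, and the median log2 fold change was -0.08 over the 10 genes and -0.04 over all genes.

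Il2, the growth factor that T cells make early after activation, had 0.128, 0 and 0.114 CPM in late SV40-I libraries, against 2.78, 3.87 and 2.07 CPM in OT-I libraries. All late SV40-I values lay below all OT-I values and near the limit of detection. The log2 fold change was -5.18 ± 1.15 (SE; edgeR adjusted p = 0.0126). Without the 2 hepatocyte-rich libraries the edgeR adjusted p of Il2 was 0.0511 and its log2 fold change -4.73. The 6 dendritic cell markers summed to 39.3 to 55.3 CPM in late SV40-I and 360 to 462 CPM in OT-I libraries, a gap that lay in Itgax (2.28 CPM in late SV40-I and 393 CPM in OT-I cells), while Xcr1 averaged 46.5 CPM in late SV40-I and 12.7 CPM in OT-I cells, and 1 of the 6 was called lower. The 9 erythroid and platelet markers summed to 107 to 863 CPM in late SV40-I and 1340 to 3440 CPM in OT-I libraries. The part of these cells in the differences was not tested.

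Il10, an anti-inflammatory cytokine, had 0.255, 1.40 and 2.26 CPM in late SV40-I libraries, against 0.0246, 0.0516 and 0 CPM in OT-I libraries. The groups did not overlap, and the OT-I counts were 1, 2 and 0. The sums of 183 and 3 counts correspond to a ratio of 56.1 (95% counting interval 18.9 to 274), with a fitted log2 fold change of 5.56 ± 1.2 (edgeR adjusted p = 0.00933). The adjusted p was 0.0695 without the hepatocyte-rich libraries and 0.0515 in a fit of these 6 libraries alone. Macrophages, another source of Il10, had marker sums of 59.3, 1090 and 955 CPM in late SV40-I and 337, 427 and 687 CPM in OT-I libraries, in the order of the Il10 values. Late SV40-I library 1 was the lowest of its group in both, and the part of macrophages in the difference was not tested.

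Csf2, which encodes GM-CSF, a growth factor of myeloid cells, had 3.12, 4.73 and 2.87 CPM in late SV40-I libraries, against 0.123, 0.258 and 0.440 CPM in OT-I libraries. Every late SV40-I library was above every OT-I library. The log2 fold change was 3.69 ± 0.79 (edgeR adjusted p = 0.0146), and the adjusted p was 0.0602 without OT-I library 1, 0.0725 without OT-I library 2 and 0.0652 without the hepatocyte-rich libraries.

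Ifng itself had 28.1, 32.5 and 23.9 CPM in late SV40-I libraries, against 54.1, 60.9 and 29.5 CPM in OT-I libraries, a log2 fold change of -0.77 ± 0.53 (edgeR adjusted p = 0.448). The late SV40-I values of Ifng were lower in mean, and 2 of them lay below the lowest OT-I library. Tnf had 17.2, 18.8 and 12.6 CPM in late SV40-I libraries, against 26.6, 33.8 and 18.5 CPM in OT-I libraries (log2 fold change -0.70 ± 0.45, edgeR adjusted p = 0.414). Lta, a secreted relative of TNF, had 6.97, 8.40 and 0.889 CPM in late SV40-I libraries, against 11, 24.6 and 15.7 CPM in OT-I libraries (log2 fold change -1.65 ± 0.88, adjusted p = 0.301). The groups did not overlap for Lta, but late SV40-I library 3 lay far below the other two.

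Il21, a cytokine known mainly from helper T cells, had 0, 6.87 and 2.10 CPM in late SV40-I libraries and 0 counts in every OT-I library. The 455 counts of late SV40-I cells are at least 139-fold higher than 3 counts over the OT-I group allow, but library 1, the one low in macrophage markers, was also at 0 and the edgeR adjusted p was 0.133 (DESeq2 adjusted p = 0.0206). The 5 markers of CD4 T cells and regulatory T cells summed to 33.1 to 52.4 CPM in late SV40-I and 49.5 to 67.0 CPM in OT-I libraries. Among them Foxp3 and Cd40lg were at 0 in all late SV40-I libraries and averaged 0.0159 and 9.19 CPM in OT-I cells. Il2ra averaged 0.878 CPM in late SV40-I and 15.8 CPM in OT-I cells. Cd4 averaged 10.4 CPM in late SV40-I and 2.14 CPM in OT-I cells and Zbtb7b 31.8 CPM in late SV40-I and 29.8 CPM in OT-I cells. Of the 5, 2 were called lower in late SV40-I cells and 0 higher. The part of such cells was not tested. Tgfb1 and Ltb were high in late SV40-I library 1 alone. Tgfb1 had 49.3, 10.8 and 10.4 CPM in late SV40-I libraries, against 16.6, 26.4 and 5.90 CPM in OT-I libraries, and Ltb had 435, 131 and 123 CPM in late SV40-I libraries, against 142, 216 and 77.0 CPM in OT-I libraries. Their log2 fold changes of 0.54 ± 0.61 and 0.67 ± 0.48 (edgeR adjusted p = 0.695 and 0.476) became -0.62 and -0.20 without that library.

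**Figure D3:**
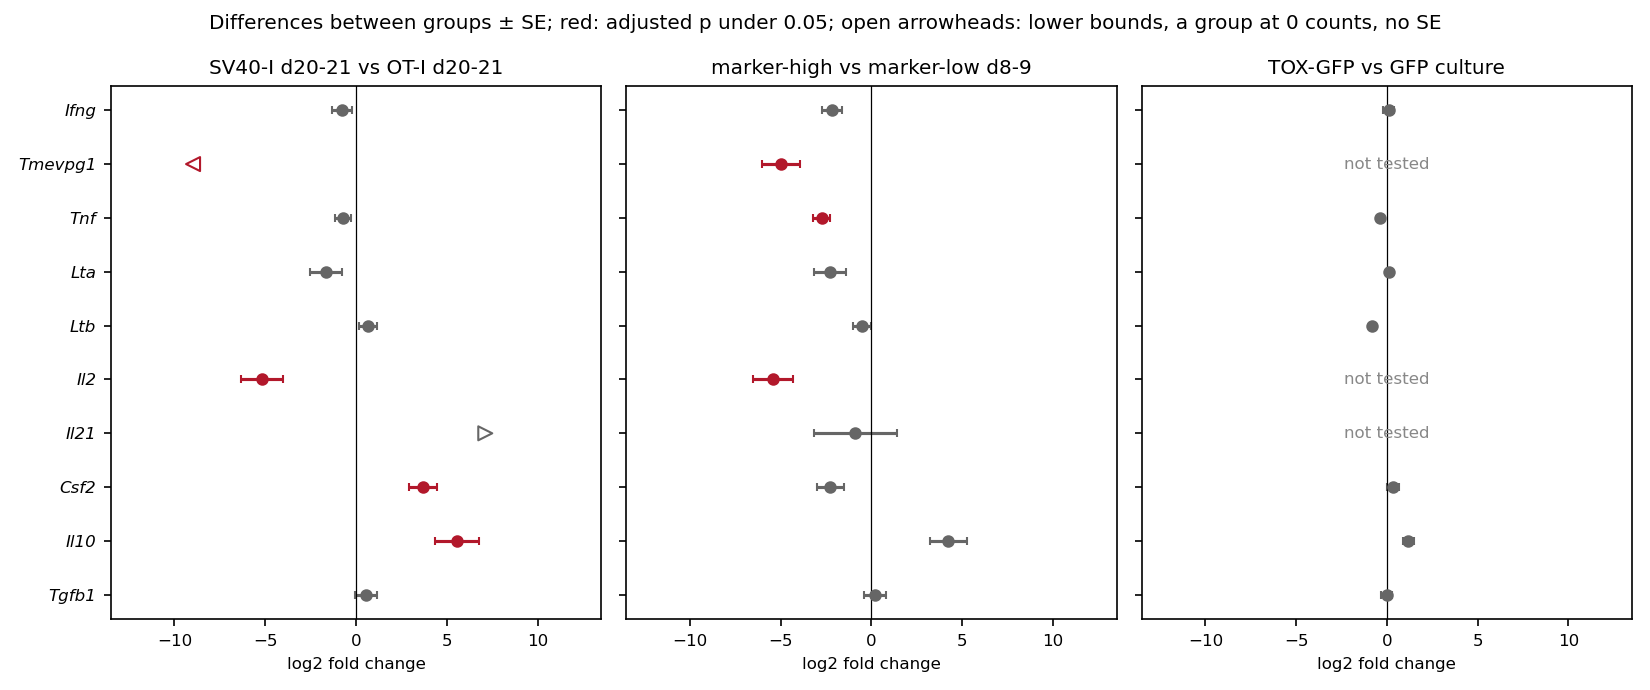
Log2 fold changes (horizontal axis) of the 10 genes in late SV40-I over OT-I, marker-high over marker-low and TOX-GFP over GFP cells. Points are edgeR estimates with SE bars, red marks an adjusted p under 0.05, and open arrowheads are lower bounds for a gene at 0 counts in a group. Il2 and Tmevpg1 are red to the left of 0 in the left and the middle panel, and no gene is red in the right panel.

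At days 8 to 9, marker-high cells had less Tnf, Il2 and Tmevpg1 than marker-low cells, which were sorted from the same kind of lesion and carry the same receptor. This made 0 genes higher and 3 lower of 10, against 1.19% of 16404 genes called, 0.475% higher and 0.719% lower. The median log2 fold change over the 10 genes was -2.23, and over all genes 0.

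Tnf had 47.8, 27.1 and 10.2 CPM in marker-high libraries, against 181, 210 and 186 CPM in marker-low libraries. The marker-low libraries lay close together and far above all marker-high libraries. The log2 fold change was -2.74 ± 0.48 (edgeR adjusted p = 0.0172), and the adjusted p was 0.0591 without marker-low library 3 and 0.0754 without marker-high library 2. In a fit of the 6 libraries of this comparison alone it was 0.133.

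Il2 had 0.772, 0.820 and 0.137 CPM in marker-high libraries, against 33.1, 19.6 and 23.2 CPM in marker-low libraries. The lowest marker-low library exceeded the highest marker-high library many times over. The log2 fold change was -5.44 ± 1.11 (edgeR adjusted p = 0.0332). This call was lost whichever 1 of the 6 libraries was left out, with adjusted p values of 0.0548 to 0.116, while the log2 fold change stayed between -5.77 and -4.97.

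Ifng had 116, 136 and 18.1 CPM in marker-high libraries, against 556, 335 and 346 CPM in marker-low libraries, a log2 fold change of -2.19 ± 0.55 (edgeR adjusted p = 0.0843). The groups did not overlap, and marker-high library 3 was several times below the other two. Without that library the log2 fold change was -1.70 and the adjusted p was 0.0381. Il10 went the other way, with 10.8, 17.3 and 1.45 CPM in marker-high libraries, against 0.420, 0.581 and 0.583 CPM in marker-low libraries. Again the groups did not overlap and marker-high library 3 was the lowest of its group. The log2 fold change of Il10 was 4.22 ± 1.02 (edgeR adjusted p = 0.072), and without marker-high library 3 it was 4.73 with an adjusted p of 0.0381.

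The other members were not called between the gates. Csf2 had 3.04, 0.687 and 0.520 CPM in marker-high libraries, against 7.34, 6.66 and 6.72 CPM in marker-low libraries (log2 fold change -2.27 ± 0.74, edgeR adjusted p = 0.229). Lta had 32.7, 12.0 and 1.26 CPM in marker-high libraries, against 80.0, 73.7 and 74.7 CPM in marker-low libraries (log2 fold change -2.29 ± 0.89, edgeR adjusted p = 0.329). Neither gene had overlapping groups, and in both the marker-low libraries agree within a narrow range while the marker-high libraries spread widely. Ltb (log2 fold change -0.52 ± 0.48) and Tgfb1 (0.20 ± 0.60) had overlapping groups. Il21 had 0.206, 0.608 and 0.0274 CPM in marker-high libraries, the last from 1 count and so under the limit of detection, against 0, 1.56 and 0 CPM in marker-low libraries, where the only library with counts was the one rich in macrophage and neutrophil markers.

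Sums over some lists of other-cell markers also differed between the gates. The 8 endothelial and stromal markers summed to 37.3 to 81.5 CPM in marker-high and 178 to 217 CPM in marker-low libraries. Most of this was Pecam1, at 57.4 CPM in marker-high, 195 CPM in marker-low and 305 CPM in naive cells. Kdr, Col1a2 and Lrat were at 0 in all marker-low libraries. The 6 dendritic cell markers summed to 44.8 to 73.9 CPM in marker-high and 79.6 to 212 CPM in marker-low libraries. Itgax averaged 31.4 CPM in marker-high and 111 CPM in marker-low cells. Xcr1 went the other way, at 23.0 CPM in marker-high and 2.06 CPM in marker-low cells. Of the 6, 1 was called higher in marker-high cells and 0 lower. Macrophage marker sums overlapped, at 4170 to 5960 CPM in marker-high and 773 to 9160 CPM in marker-low libraries, and none of the 10 macrophage markers was called. Tnf was 181, 210 and 186 CPM in marker-low libraries whose macrophage sums were 2170, 9160 and 773 CPM, in the same order of libraries. The part of RNA from these other cells in the differences was not tested.

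The cultures address whether forced TOX changes these transcripts at the level reached there. Tox averaged 117 CPM in TOX-GFP and 14.5 CPM in GFP cells, against 580 CPM in marker-high and 890 CPM in late SV40-I cells. Of the 10 genes, 7 had enough counts to be tested and 0 were called, as were 0 of 14614 genes (0%) in edgeR's quasi-likelihood test with 2 libraries a group, while 1906 genes had an unadjusted p under 0.05. DESeq2 called 418 genes higher and 142 lower, Ltb and Il10 among them. Ltb had 800 and 766 CPM in TOX-GFP libraries, against 1370 and 1280 CPM in GFP libraries (log2 fold change -0.82 ± 0.10, edgeR adjusted p = 0.207, DESeq2 adjusted p = 3.14e-06). Il10 had 14.3 and 16.8 CPM in TOX-GFP libraries, against 8.14 and 4.98 CPM in GFP libraries (log2 fold change 1.18 ± 0.29, edgeR adjusted p = 0.247, DESeq2 adjusted p = 0.00668). For both genes the groups did not overlap. In edgeR, Ltb was called without GFP library 1 (log2 fold change -0.76, adjusted p = 0.0202) or GFP library 2 (-0.90, adjusted p = 0.0202), and Il10 without GFP library 1 (1.59, adjusted p = 0.0289), where the lone GFP library is assumed to vary like the TOX-GFP libraries.

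Tnf had 75.7 and 71.6 CPM in TOX-GFP libraries, against 93.3 and 89.1 CPM in GFP libraries (log2 fold change -0.37 ± 0.12, edgeR adjusted p = 0.298). Ifng (log2 fold change 0.09 ± 0.31), Csf2 (0.34 ± 0.31), Lta (0.10 ± 0.12) and Tgfb1 (-0.02 ± 0.28) had edgeR adjusted p values of 0.704 to 0.985. Il2 had 4 counts in each TOX-GFP library, against 4 and 6 counts in the GFP libraries, and Il21 had 0 counts in all 4. A fall of Il2, Il21 or Tmevpg1 in TOX-GFP cells was therefore not detectable at this depth, and no rise above a few counts was seen. The difference between the effect of TOX in culture and the contrast of marker-high over marker-low cells was not called for any of the 10 genes (5 of 18608 genes called, 0.0269%, with 0.0215% higher and 0.00537% lower). For Il2 that difference was 5.02 ± 1.64 (edgeR adjusted p = 0.695), for Tnf 2.44 ± 0.66 (adjusted p = 0.435) and for Il10 -2.98 ± 1.30 (adjusted p = 1). DESeq2 called the difference for Il2 (adjusted p = 0.0184) and Tnf (0.0335).

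Naive cells gave the baseline, shared by the next 5 comparisons. Ifng was higher than in naive cells in all 5, with log2 fold changes of 8.88 ± 0.83 in late SV40-I, 9.66 ± 0.84 in OT-I, 10.56 ± 0.86 in marker-high, 12.75 ± 0.91 in marker-low and 5.68 ± 0.76 in GFP cells (edgeR adjusted p between 3.37e-06 and 4.31e-05). Naive libraries held 2, 3 and 3 Ifng counts. Csf2, at 0 counts in naive cells, was at least 166-fold higher in late SV40-I, 12.7-fold in OT-I, 65.4-fold in marker-high, 313-fold in marker-low and 93.3-fold in GFP cells, against 3 counts over the naive group, and was called in all 5 comparisons.

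In late SV40-I cells 3 genes were higher and 2 lower than in naive cells, with 18% of genes called, 11.1% higher and 6.86% lower. The third higher gene was Il10 (log2 fold change 4.85 ± 1.12, edgeR adjusted p = 0.00824). The lower ones were Tmevpg1 and Lta, whose log2 fold change was -2.83 ± 0.92 (adjusted p = 0.0486). The call of Lta was lost without any 1 of the 6 libraries, with adjusted p values of 0.0692 to 0.109. OT-I cells had 4 genes higher and 0 lower, with 7.35% of genes called, 5.06% higher and 2.29% lower. Beside Ifng and Csf2 these were Il2 (log2 fold change 6.23 ± 1.25, edgeR adjusted p = 0.00694) and Tmevpg1 (3.72 ± 0.98, adjusted p = 0.0431). Without any 1 of the 6 libraries the call of Tmevpg1 was lost, with adjusted p values of 0.0695 to 0.159.

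Marker-high cells had 5 genes higher and 1 lower than naive cells, with 23.4% of genes called, 14.3% higher and 9.10% lower. The higher ones included Il10 (log2 fold change 7.77 ± 1.24, edgeR adjusted p = 0.000709), Il2 (3.91 ± 1.19, adjusted p = 0.0286) and Tgfb1 (1.94 ± 0.63, adjusted p = 0.0406), and the lower one was Ltb (-1.90 ± 0.50, adjusted p = 0.0155). Without marker-high library 2 the calls of Il2, Tgfb1 and Ltb were lost, with adjusted p values of 0.0807, 0.0904 and 0.0585. Those of Il2 and Tgfb1 were also lost without marker-high library 1 (0.0767 and 0.12) and without naive library 1 (0.0873 and 0.0884) or naive library 2 (0.0888 and 0.122), and that of Tgfb1 without naive library 3 (0.103). Marker-low cells had 6 genes higher and 0 lower, with 16.8% of genes called, 10.6% higher and 6.21% lower. They were Ifng, Csf2, Il2 (log2 fold change 9.35 ± 1.37, adjusted p = 0.000639), Tnf (3.96 ± 0.50, adjusted p = 0.000238), Tmevpg1 (5.86 ± 1.08, adjusted p = 0.00479) and Il10 (3.55 ± 1.08, adjusted p = 0.0363). The call of Il10 was lost without any 1 of the 6 libraries, with adjusted p values of 0.0633 to 0.129.

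GFP cultures had 7 genes higher and 1 lower than naive cells, with 32.6% of 18608 genes called, 17.6% higher and 15% lower. Lta had 619 and 550 CPM in GFP libraries, against 48.0, 40.1 and 32.8 CPM in naive libraries (log2 fold change 3.84 ± 0.89, edgeR adjusted p = 0.00385). Il10 (log2 fold change 7.12 ± 1.13), Tnf (2.82 ± 0.46), Tgfb1 (2.63 ± 0.64) and Ltb (1.70 ± 0.49) rose too, with adjusted p values of 0.000171 to 0.0146. The lower gene was Tmevpg1, with 0 and 3 counts in GFP libraries, against 37, 20 and 64 counts in naive libraries (ratio of naive to GFP 32.6, 95% counting interval 10.9 to 160, edgeR adjusted p = 0.0177). Its adjusted p was 0.146 without GFP library 1. The Ltb call was lost without GFP library 1 (adjusted p = 0.0525) and without naive library 3 (0.0578). Lta was not called higher than naive cells in any ex vivo group, although a fit of marker-low and naive libraries alone gave a log2 fold change of 0.92 (adjusted p = 0.0325).

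The difference between the late contrast (late SV40-I over OT-I) and the early contrast (marker-high over marker-low) was called for 1 gene, Csf2, with 1.03% of genes called, 0.628% higher and 0.402% lower. The contrasts have no library in common. Csf2 was 3.69 log2 units higher in late SV40-I than in OT-I cells and -2.27 in marker-high against marker-low cells, and the difference was 5.95 ± 1.08 (edgeR adjusted p = 0.0274). It was between 5.55 and 7.20 without any 1 of the 12 libraries, but the call was lost without 10 of them, with adjusted p values of 0.0514 to 0.0941. It held without marker-high library 1 (adjusted p = 0.00942) and marker-high library 3 (0.0337). For Il2 the difference was 0.26 ± 1.41 (edgeR adjusted p = 0.994), and for Il10 1.34 ± 1.47 (adjusted p = 0.761). Between late SV40-I cells and marker-high cells, 1 gene was called lower and 0 higher (5.33% of genes called, 1.76% higher and 3.57% lower), Tmevpg1, at least 71.2-fold lower (edgeR adjusted p = 0.0119, and 0.0637 without the hepatocyte-rich libraries). Ifng (log2 fold change -1.68 ± 0.54, edgeR adjusted p = 0.0944) and Il10 (-2.92 ± 0.96, adjusted p = 0.0991) passed the threshold only without marker-high library 3 (adjusted p = 0.00104 and 0.0273) or in DESeq2 (0.0274 and 0.0154).

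Tmevpg1 is transcribed next to Ifng, and in mouse and human T cells it is known to promote Ifng transcription. Ifng lies at chr10:118441046-118445892 on the plus strand and Tmevpg1 at chr10:118502035-118556525 on the minus strand (GRCm38), 56143 bases apart. Late SV40-I libraries held 0 Tmevpg1 counts beside 1101, 1719 and 1050 Ifng counts. OT-I libraries held 332, 661 and 395 Tmevpg1 counts beside 2201, 2361 and 1342 Ifng counts. Tmevpg1 was thus at least 504-fold lower in late SV40-I than in OT-I cells, against 3 counts over the late SV40-I group (edgeR adjusted p = 0.0013), and this call held without each of these libraries in turn.

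Per 100 Ifng counts, Tmevpg1 had 1.93, 1.71 and 0.455 counts in marker-high libraries, against 11.5, 4.87 and 20.4 counts in marker-low libraries. The groups did not overlap in this ratio, nor did OT-I cells, at 15.1, 28.0 and 29.4, overlap marker-high cells. In CPM, Tmevpg1 had 2.24, 2.33 and 0.0821 in marker-high libraries, against 64.0, 16.3 and 70.7 in marker-low libraries (log2 fold change -5.0 ± 1.04, edgeR adjusted p = 0.0469). That call was lost without marker-low library 1 (adjusted p = 0.116), marker-low library 3 (0.144), marker-high library 1 (0.112) or marker-high library 2 (0.135). Naive cells were the only group with more Tmevpg1 than Ifng counts, at 37, 20 and 64 beside 2, 3 and 3. Late SV40-I cells were at 0 Tmevpg1 counts although naive libraries of similar depth had 20 or more, at least 40.2-fold lower (edgeR adjusted p = 0.00695).

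**Figure D4:**
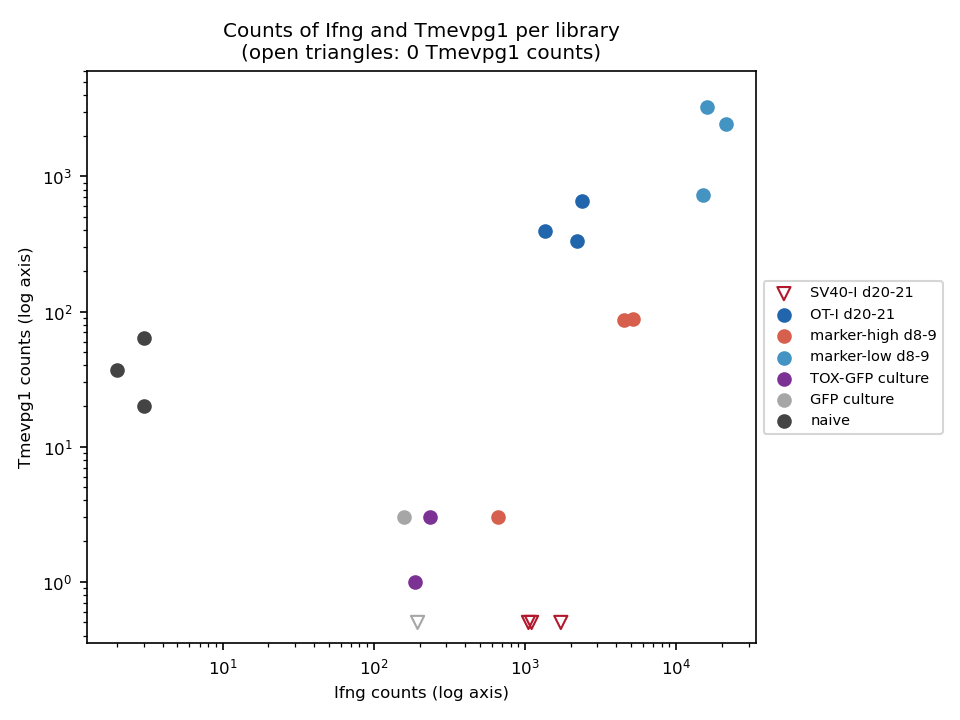
Tmevpg1 counts (vertical, log axis) against Ifng counts (horizontal, log axis), 1 point per library, coloured by group. Open triangles are libraries with 0 Tmevpg1 counts. The 3 late SV40-I libraries lie at 0 Tmevpg1 beside 1050 to 1719 Ifng counts, in the range of Ifng where an OT-I library has 395 Tmevpg1 counts.

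The 3 genes of the TNF locus lie within the same stretch of chromosome 17, Ltb at chr17:35194439-35196320 on the plus strand, Tnf at chr17:35199381-35202007 and Lta at chr17:35203165-35205351 on the minus strand. Tnf and Lta are 1158 bases apart and Tnf and Ltb 3061. They did not share 1 pattern over the groups. Tnf was highest in marker-low cells, Lta in TOX-GFP cultures at 652 ± 58.2 CPM and Ltb in GFP cultures at 1320 ± 65.4 CPM (SD, n = 2 each). The lowest groups were naive cells for Tnf, late SV40-I cells for Lta at 5.42 ± 3.99 CPM and marker-high cells for Ltb at 104 ± 15.4 CPM (SD, n = 3 each). Over the 19 libraries, Pearson's r of log2 levels was 0.671 between Tnf and Lta and 0.211 between Tnf and Ltb, as a description over libraries that share groups.

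Il2 (chr3:37120523-37125959, minus strand) and Il21 (chr3:37222759-37232636, minus strand) are 96800 bases apart and were highest in different groups, Il2 in marker-low cells and Il21 in late SV40-I cells. Csf2 (chr11:54247271-54249667, minus strand) lies 15636 bases from Il3, another myeloid growth factor gene. Il3 was detected only at days 8 to 9, at 0.304 ± 0.265 CPM in marker-high and 4.97 ± 3.89 CPM in marker-low cells (SD, n = 3 each), and was at 0 in late SV40-I cells, where Csf2 was 3.57 ± 1.01 CPM (SD, n = 3). Il10 (chr1:131019845-131024974) and Tgfb1 (chr7:25687002-25705077) are on the plus strand. A clone-named transcript inside Ifng and on its strand, RP23-353P23.2, had at most 3.52 CPM, and reads in exons that both share were counted for neither. The genes that overlap Il2 and Il21 were at 0 in every library, and the one that overlaps Csf2 had at most 0.204 CPM. Reads in any shared exons were counted for neither gene there too, so these low values do not show how many reads were lost. Levels of the overlapped cytokine genes may be too low, by an amount that was not tested.

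Among the receptors of these cytokines, 4 of 16 were higher and 3 lower in late SV40-I than in OT-I cells, where 4.91% of all genes were higher and 4.11% lower. Ifngr1, the ligand-binding chain of the IFN-gamma receptor, averaged 451 ± 148 CPM in late SV40-I and 1460 ± 199 CPM in OT-I cells (SD, n = 3 each; log2 fold change -1.70 ± 0.26, edgeR adjusted p = 0.0013). Tnfrsf1b, the TNF receptor prominent on T cells, averaged 2860 ± 398 CPM in late SV40-I and 845 ± 80.3 CPM in OT-I cells (SD, n = 3 each; log2 fold change 1.75 ± 0.34, edgeR adjusted p = 0.00596). The 7 receptors include 5 named after their values were seen. Il2ra, the high-affinity chain of the IL-2 receptor, fell by 4.17 ± 0.98 on the log2 scale (edgeR adjusted p = 0.0178), while Il2rb, its signalling chain, rose by 1.17 ± 0.34 (adjusted p = 0.0489). Il2 and Il2ra were thus both lower in late SV40-I cells. Il2ra is also on the list of markers of CD4 T cells and regulatory T cells, and the part of such cells was not tested. Tnfrsf1a and Il21r were the other higher receptors and Il10rb the other lower one. No receptor was called between marker-high and marker-low cells, where 1.19% of all genes were called, or between the cultures, where 0% were. Neither is a result about the receptors as a group.

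Of 28 other cytokine genes, 17 were tested in the ex vivo libraries, and 1 was higher and 1 lower in late SV40-I than in OT-I cells, close to the 4.91% and 4.11% of all genes and so no result about these cytokines as a group. Csf1, the macrophage growth factor, averaged 13.3 ± 9.32 CPM in late SV40-I and 0.0594 ± 0.0651 CPM in OT-I cells (SD, n = 3 each; edgeR adjusted p = 0.00612). Il15, a survival factor for memory T cells made mainly by myeloid and stromal cells, averaged 0.743 ± 0.151 CPM in late SV40-I and 9.33 ± 2.50 CPM in OT-I cells (SD, n = 3 each; log2 fold change -3.65 ± 1.03, adjusted p = 0.0438). Between marker-high and marker-low cells 0 of 17 were called, against 1.19% of all genes, again no result about the group.

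Of 42 transcription regulators of these genes, 6 were higher and 1 lower in late SV40-I than in OT-I cells, against 4.91% and 4.11% of all genes, with a median log2 fold change of 0.39. The higher ones were Nr4a2, Ikzf2, Egr1, Crem, Irf8 and Egr2, and the lower one was Nfatc3, an NFAT factor, of which all but Nr4a2 and Ikzf2 were named after their values were seen. Nr4a2, a nuclear receptor induced by T cell receptor signals, averaged 28.2 ± 15.2 CPM in late SV40-I and 0.111 ± 0.173 CPM in OT-I cells (SD, n = 3 each; edgeR adjusted p = 0.000935). Ikzf2, which encodes Helios, averaged 5.69 ± 3.02 CPM in late SV40-I and 0.00734 ± 0.0127 CPM in OT-I cells (SD, n = 3 each; edgeR adjusted p = 0.00144). Egr1 (log2 fold change 3.04 ± 0.50) and Egr2 (2.51 ± 0.73) are early genes of receptor signalling (edgeR adjusted p = 0.0019 and 0.0498). Other regulators on the list were not called there and had no common direction. Among them were Egr3 (1.58 ± 1.55), Nr4a1 (0.25 ± 0.43) and Nr4a3 (-2.35 ± 0.87), with edgeR adjusted p = 0.629, 0.813 and 0.123. Nr4a1 averaged 28.6 ± 12.5 CPM in late SV40-I and 23.9 ± 14.0 CPM in OT-I cells (SD, n = 3 each). Between marker-high and marker-low cells 1 of 42 regulators was called, against 1.19% of all genes. Nr4a1, a reporter gene of recent receptor signalling, averaged 192 ± 79.5 CPM in marker-high and 1040 ± 271 CPM in marker-low cells (SD, n = 3 each; log2 fold change -2.43 ± 0.46, edgeR adjusted p = 0.023), in the same direction as Tnf and Il2.

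Of 14 genes of mRNA decay, 2 were higher and 0 lower in late SV40-I than in OT-I cells, against 4.91% and 4.11% of all genes, a count too small to set the list apart. Zfp36l1, which binds AU-rich elements such as those printed above, averaged 53.0 ± 25.7 CPM in late SV40-I and 17.9 ± 4.49 CPM in OT-I cells (SD, n = 3 each; log2 fold change 1.56 ± 0.45, edgeR adjusted p = 0.0493). Btg1, which promotes deadenylation, rose by 0.87 ± 0.23 on the log2 scale (edgeR adjusted p = 0.0337). Csf2, the mRNA with the densest ATTTA, was higher in the same cells, and Il2 was lower. The part of mRNA decay in these differences was not tested. Of 13 genes that process or store cytokine proteins, 10 were tested and 1 was lower, against 4.11% of all genes, Nrros, which anchors latent TGF-beta on myeloid cells, at 220.0 ± 4.18 CPM in late SV40-I and 477 ± 98.7 CPM in OT-I cells (SD, n = 3 each; log2 fold change -1.12 ± 0.25, edgeR adjusted p = 0.013). None of the 14 decay genes and none of the 10 processing genes was called between marker-high and marker-low cells. Only 1.19% of all genes were called there, so this is no result about these lists. In the TOX cultures, as for all genes there, no gene of these lists was called.

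The genes most like 4 of the cytokines were found by Pearson's r of log2 levels over 19 libraries, among 9462 genes that reached a mean of 10 CPM in at least 1 group. The libraries share groups and markers of other cells, so r is a description. Ifng was most like Fhl2 (r = 0.943), Tnfsf9 (0.933), Xcl1 (0.922), Tnfsf14 (0.914) and Nat10 (0.907). Xcl1, a chemokine that attracts cross-presenting dendritic cells, averaged 26.7 CPM in late SV40-I, 12.8 in OT-I, 179 in marker-high, 606 in marker-low, 0.400 in TOX-GFP, 0.809 in GFP and 0.561 CPM in naive cells. Tnf was most like Rrp1b (0.920), Irf4 (0.910), Mfsd2a (0.901), Lif (0.900) and Ppan (0.891). Il2 was most like Gpr15 (0.940), Gadd45b (0.901) and Nfkbid (0.887), and Tmevpg1 like Pald1 (0.890), Gpr15 (0.890) and Chil5 (0.878). Among pairs of the 10 genes that include Ifng, Tnf, Il2 or Tmevpg1, the highest r was that of Il2 with Tmevpg1, at 0.948. That of Ifng with Tmevpg1 was 0.671. The other pairs were not computed. With Spearman's rho in place of Pearson's r, 3 of the 5 genes named for Ifng, 3 of those for Tnf and 1 of those for Il2 stayed among the 5 most alike.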

How the data were processed

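Raw read counts per gene were deposited by the authors, 1 table per library. Per the file headers they were made with featureCounts 1.6.2 on paired reads with the GENCODE M17 annotation of GRCm38.p6, by gene name and with no strand or multi-overlap option. Reads in exons shared by overlapping genes, on either strand, were therefore counted for none of them. The submitters' processing notes also name FastQC, STAR and DESeq2. Per the labels' protocols, cells were sorted into lysis reagent and cDNA was amplified before library preparation.

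Counts were tested with edgeR 4.0.16 (R 4.3.3; TMM scaling, filterByExpr, robust quasi-likelihood test, Benjamini-Hochberg adjustment over all genes tested, called under 0.05). The 15 ex vivo libraries were fitted together (16404 genes), the 4 cultures together (14614 genes), and all 19 libraries (18608 genes) for GFP against naive cells and for the culture minus early difference. CPM were scaled by TMM over 19 libraries. DESeq2 1.42.0, other scalings and filters, fits of the compared groups alone, replicate blocks and omission of each library were alternatives. A count of 3 was taken as the limit of detection, and intervals (95%, exact) cover counting error only. No pair of libraries within a group agreed within sampling noise. Pairs across groups were not compared.

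The label numbers met the condition for pairing (every correlation of deviations above 0.1) only between marker-high and naive cells, at 0.106, 0.139 and 0.17, and the replicate block there left 6 genes called and changed no call. By the numbers in the table names, the condition was met between marker-high and marker-low cells, at 0.108 and 0.266. The block by those numbers kept the call of Tnf there and lost those of Il2 and Tmevpg1.

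The 10 genes and all lists were chosen with earlier results of these data known. Named list genes were the 2 with the smallest p among those called, per list, and those most alike were the 5 with the highest r on log2(CPM + 0.5).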

Additional observations from a re-analysis of the deposited data

Results flagged for a closer look

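Csf2 differed between the late contrast, of 2 receptors, and the early contrast, of 2 sort gates of 1 receptor, so time and the kind of groups compared cannot be told apart. Csf2 averaged 3.57 ± 1.01 CPM in late SV40-I and 0.274 ± 0.159 CPM in OT-I cells, and 1.41 ± 1.41 CPM in marker-high and 6.91 ± 0.379 CPM in marker-low cells (SD, n = 3 each). The difference between the contrasts was 5.95 ± 1.08 on the log2 scale (edgeR adjusted p = 0.0274). The call was lost in 13 of 20 alternatives, with adjusted p values over all alternatives of 4.22e-06 to 0.103. These 13 were both replicate blocks, the fit without the hepatocyte-rich libraries and the fits without 1 library for 10 of the 12. Every late SV40-I library was above every OT-I library, and every marker-high library below every marker-low library.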

How the results depend on the processing

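Of 38 called results of the 10 genes, 21 kept their call under every alternative run for them, and of 69 uncalled results 47 were never called. Between marker-high and marker-low cells, 3 genes were called in the report, against 6 with DESeq2, 0 in a fit of the compared groups alone, 2 with the replicate block, 1 with a block by the number in the table names and 0 to 4 without 1 library. Between late SV40-I and OT-I cells, 4 became 2 with the table-name block and 1 without the hepatocyte-rich libraries, while the replicate block left 4. Between late SV40-I and marker-high cells, 1 became 4 with DESeq2, 0 without the hepatocyte-rich libraries, 0 in a fit of the compared groups alone, where Tmevpg1 had too few counts to be tested, and 1 to 3 without 1 library. For the late minus early difference, 1 became 3 with DESeq2, 0 with either block or without the hepatocyte-rich libraries, and 0 to 2 without 1 library. Marker-high against naive cells gave 3 to 7 in place of 6 without 1 library. In culture 0 became 2 with DESeq2 and 0 to 2 without 1 library, and for the culture minus early difference 0 became 2 with DESeq2. The cause of these changes was not tested.

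Signs that turned belong to values that were not called. For Il21 the log2 difference of marker-high over marker-low was 1.15 with the replicate block, 0.58 with the table-name block and -2.12 to 6.58 without 1 library, and the culture minus early one -0.79, -0.57 and -6.71 to 2.13. For Tgfb1 in culture it was 0.03 in a joint fit of 19 libraries, 0.04 with either block and -0.42 to 0.49 without 1 library. Without 1 library, Tgfb1 ranged from -0.62 to 1.04 in late SV40-I over OT-I, -0.03 to 0.46 in marker-high over marker-low, -0.09 to 1.43 in late SV40-I over naive, -0.01 to 0.93 in OT-I over naive, -0.82 to 0.84 for late minus early and -0.49 to 0.33 for culture minus early. Ltb ranged from -0.20 to 1.03 in late SV40-I over OT-I, Il2 from -0.25 to 0.87 for late minus early, and in culture Ifng from -0.14 to 0.29 and Lta from -0.02 to 0.20.

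Over all genes, late SV40-I against OT-I gave 805 higher and 674 lower, against 1363 and 1092 with DESeq2, 480 and 483 with the table-name block and 346 and 343 without the hepatocyte-rich libraries. Marker-high against marker-low gave 78 and 118, against 334 and 403 with DESeq2, 1 and 3 in the compared groups alone and 8 and 17 with the table-name block. On raw totals 14 of 70 mean CPM values moved by over 1 SD. With Spearman's rho 0 of the 5 genes named as most like Tmevpg1 stayed. Counts at or under 3 limit Tmevpg1 in culture and Il21 in most groups, and Il2 had only 4 to 6 counts in each cultured library.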
